A study of Anas platyrhynchos with 6 samples.

Results

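MicroRNA names mostly of birds were examined in small RNA libraries of the duck duodenum. They were chosen by name alone. Names with the prefix of chicken (gga), zebra finch (tgu) or duck (apl) were taken where the number after miR- was 1300 or above, and names of miR-460, miR-2188 and miR-2954 were taken under any prefix. The rule found 91 of the 1568 names in the tables, of which 60 carry the chicken prefix, 15 the zebra finch prefix, 6 the duck prefix and 10 other prefixes. These other prefixes include opossum and platypus, which are mammals. The lowest number taken by the limit of 1300 was miR-1306. The nearest name of these 3 prefixes that was left out below it was gga-miR-499-5p, at a mean of 7.40 RPM. RPM stands for the reads of a name scaled to a total of 1000000 over all names in each library.

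The CR group held Nonghu No. 2 ducks that had been moved to cages, and the TB group held ducks of the same breed that stayed on the floor. All ducks were selected at 90 days of age and kept on the floor before the trial. Both groups were given the same amount of feed, but the paper reports a lower food intake in the CR group. All ducks were sampled after a trial of 10 days, with 4 rearing replicates of 8 ducks in each group. Duodenal RNA of 20 to 30 nucleotides was sequenced in 3 CR and 3 TB libraries. The labels do not say which ducks or rearing replicates these came from, or the sex of the ducks. Tests between groups therefore measure the spread between these libraries, which may be technical.

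An animal miRNA is cut from a hairpin precursor, whose arms give the 5p and the 3p product, and often one arm is the more abundant. It guides repression of messenger RNAs through its seed near the 5′ end. miRBase numbers follow the order of discovery, so a high number says that a miRNA was registered late and says nothing on how widely it is conserved. miR-460 and miR-2188 are known from fish, reptiles and birds, and miR-460 names of opossum and platypus are also listed here. miR-2954 lies on the Z chromosome of birds, of which males carry a pair and females a single copy, and in chicken and zebra finch it is known to be more abundant in males. Mature sequences and duck loci of these miRNAs were not analysed here.

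Summed over all names, the libraries held 11395209, 1500905 and 9998318 reads in CR replicates 1 to 3 and 5708735, 9339494 and 9014316 reads in TB replicates 1 to 3. These totals include every name, also names with equal counts, so they may exceed the reads sequenced. A single read was worth 0.0878 RPM in the deepest library, CR replicate 1, and 0.666 RPM in the shallowest, CR replicate 2. CR replicate 2 and TB replicate 1 stood apart from the other libraries. A name was tested where 3 or more libraries had 10 or more of its reads, which 662 names did. Over these 662 names, their log2(RPM + 1) values had a Pearson correlation of 0.968 with each other, of 0.737 to 0.818 with the other 4 libraries, and the other 4 had correlations of 0.982 to 0.992 among themselves. These correlations are across names, which are not independent. For 57.3% of the 662 names, CR replicate 2 and TB replicate 1 were the 2 highest libraries. The TMM scaling factors of the libraries ran from 0.531 to 2.97. RPM is a share of the total of a library. Ranks and ranges of libraries are given in RPM here, and under another scaling they may differ. The labels give the cell type as intestinal epithelial cells. The 7 epithelial markers (miR-192, miR-194, miR-215, miR-200a, miR-200b, miR-141 and miR-429) were all present and summed to between 36505 and 137803 RPM in the CR libraries and between 47880 and 186540 RPM in the TB libraries. Smooth muscle markers, led by miR-143, summed to between 92244 and 201260 RPM in CR and between 119998 and 165695 RPM in TB, so the libraries did not hold epithelial RNA alone.

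Of the 91 names, 84 had at least 1 read and 7 were listed at 0 in all libraries. The 84 detected names held 62 distinct sets of read counts. Names with equal counts in all 6 libraries are reported once, and whether they share reads was not tested, since names with few reads can also have equal counts by coincidence. The filter on reads was passed by 20 names (22.0% of the 91, against 42.2% of all 1568), or 19 after the pigeon and chicken names of miR-460b-5p, which had equal counts, were counted once. These 19 comprised 5 with a mean of at least 100 RPM, 5 between 10 and 100 RPM and 9 under 10 RPM. For some members these means rest on CR replicate 2 and TB replicate 1. In the other libraries gga-miR-2954 lay between 12.7 and 27.8 RPM, below gga-miR-1662 at 45.7 to 106.5 RPM. There gga-miR-1306-3p, with a mean of 12.6 RPM, lay between 0.614 and 1.11 RPM. The order of the miRNAs is by mean RPM, which is not corrected for length. It can differ from the order of total reads, as gga-miR-2954 (6030 reads) came before gga-miR-1559-5p (8696 reads). None of the 6 duck names passed the filter.

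The summed level of the 62 distinct sets was 1021, 5105 and 994 RPM in CR replicates 1 to 3 and 2471, 1244 and 1971 RPM in TB replicates 1 to 3. They thus made up between 0.0994% and 0.510% of the total over all names of a library. That total includes each of the names with equal values, such as efu-miR-143 and mmu-miR-143-3p. These are therefore not shares of the reads sequenced. The mean of the summed level was 2373 ± 2366 RPM in the CR group and 1895 ± 617 RPM in the TB group (SD, n = 3 each). CR replicate 2 alone lay above all TB libraries. The log2 ratio of the means, CR over TB, was 0.32, but it was -0.91 without CR replicate 2, -0.67 without both CR replicate 2 and TB replicate 1, and -0.33 after TMM scaling. The 5 most abundant members, miR-1388b-3p, miR-1388b-5p, miR-2954, miR-1559-5p and miR-1662, took 90.9% to 97.1% of the sum in each library. For scale, the most abundant name of all, ola-miR-143, had a mean of 144698 RPM, of which the mean of gga-miR-1388b-3p was 0.632% and that of gga-miR-1662 0.0807%.

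**Figure D1:**
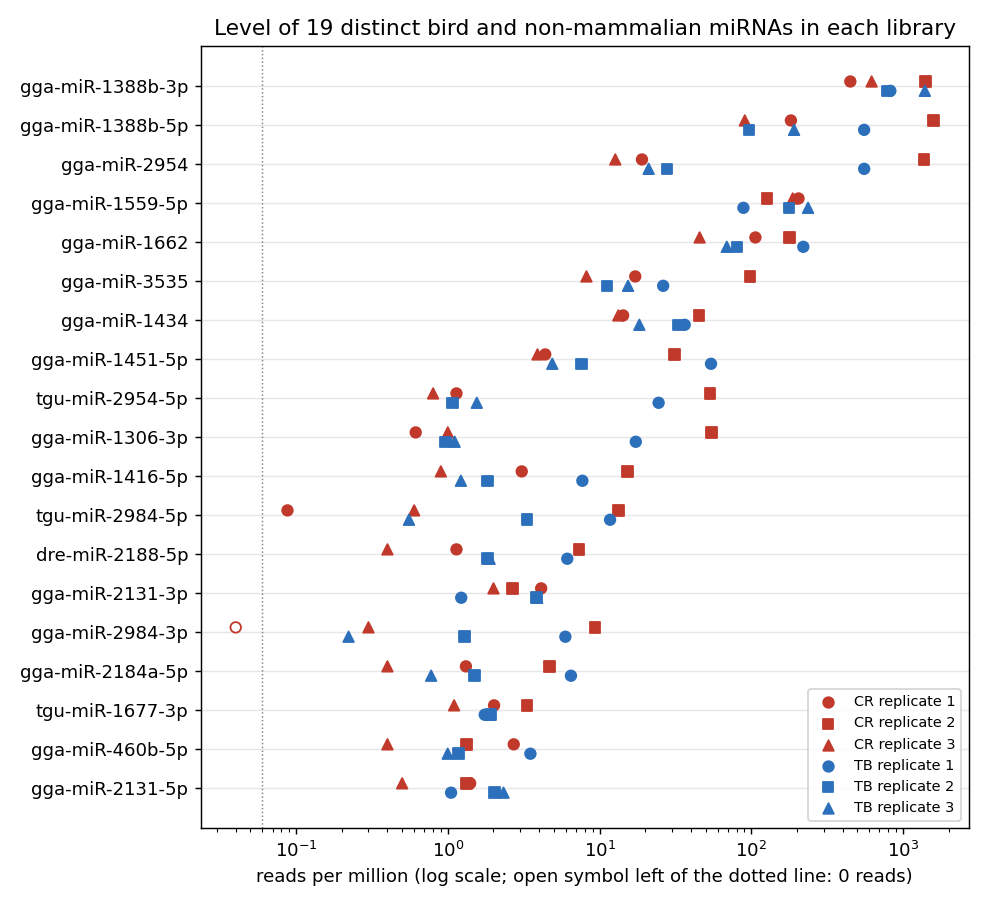
Level in RPM (log axis) of the 19 distinct miRNAs past the filter, by library, with CR in red and TB in blue and a symbol for each replicate number. The open symbol is a library with 0 reads of gga-miR-2984-3p. In 13 of the 19 rows (68.4%) the symbols farthest to the right are CR replicate 2 and TB replicate 1. The same held for 57.3% of all 662 tested names, where names with equal counts were each counted.

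miR-1388b was the most abundant of these hairpins. The name gga-miR-1388b-3p had 449.9, 1407 and 622 RPM in CR replicates 1 to 3 and 826, 786 and 1395 RPM in TB replicates 1 to 3. It ranked 101st among all names by mean, and its mean was 826 ± 510.4 RPM in CR against 1002 ± 341 RPM in TB (SD, n = 3 each). The groups overlapped, because CR replicate 2 was the highest library of all while the other 2 CR libraries were the lowest (p = 0.6 in a two-sided exact permutation test, whose smallest possible p with 3 libraries a group is 0.1).

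The other arm followed a different order. The name gga-miR-1388b-5p had 183, 1592 and 90.7 RPM in CR replicates 1 to 3 and 555, 96.8 and 191.6 RPM in TB replicates 1 to 3, a mean of 622 ± 842 RPM in CR and 281 ± 242 RPM in TB (SD, n = 3 each; two-sided exact permutation test, p = 0.9). It was highest in CR replicate 2 and TB replicate 1. The 5p arm made up 53.1% of the reads of both arms in CR replicate 2 (95% Wilson interval 51.6% to 54.5%), 40.2% in TB replicate 1, 28.9% in CR replicate 1 (27.8% to 29.9%) and between 11.0% and 12.7% in the other libraries. The ratio of 3p to 5p reads thus ranged from 0.884 in CR replicate 2 to 8.12 in TB replicate 2. Intervals on reads cover counting error only, as PCR copies of a molecule could not be removed.

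The arm names of miR-1388 differed between species prefixes. The name mdo-miR-1388-3p (opossum) had exactly the same read counts as gga-miR-1388b-3p. In contrast, ola-miR-1388-3p (medaka) followed gga-miR-1388b-5p, which was 0.824 to 0.952 times as high in each library, with a Pearson correlation of 0.999 of log2(RPM + 1) over the 6 libraries. Likewise oan-miR-1388-5p (platypus), at a mean of 1390 RPM, was more like gga-miR-1388b-3p, with a correlation of 0.934, than like gga-miR-1388b-5p, with a correlation of 0.246. These are descriptions over 6 shared libraries, and without the sequences it cannot be told whether these names share reads. The arm shares and ratios of miR-1388b above rest on the chicken names alone. They therefore depend on which name is taken for each arm.

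**Figure D2:**
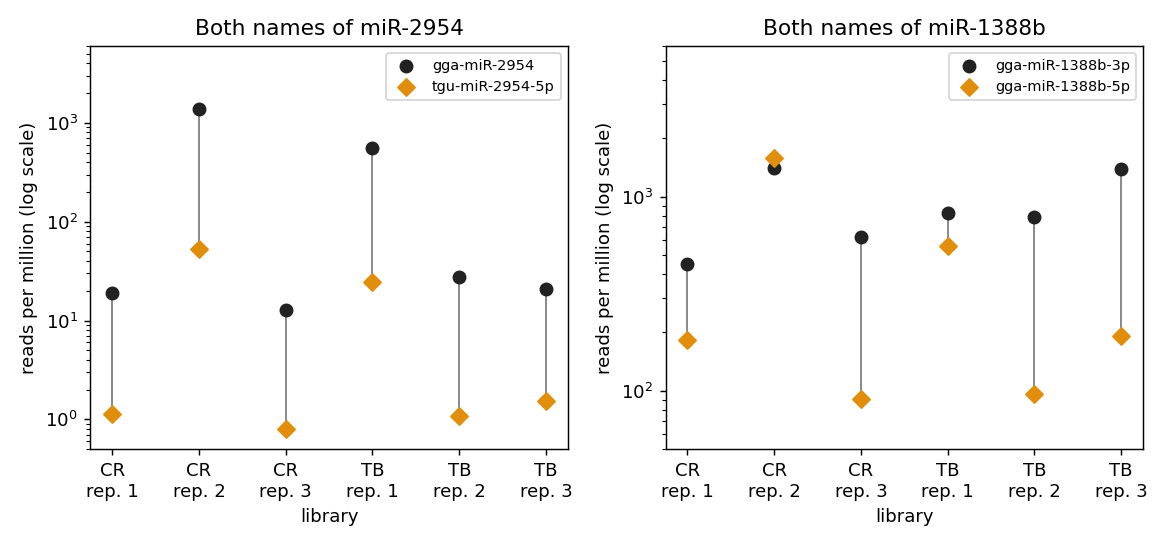
Levels in RPM (log axes) of both names of miR-2954 (left) and both arms of miR-1388b (right) in each library, with CR libraries left of TB libraries and a line joining the values of a library. The distance between both names of miR-2954 stays at 13.6 to 26.0 times, while the chicken names of the miR-1388b arms cross in CR replicate 2.

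miR-2954, Z-linked in other birds, had the widest range of the 19 members on the log2(RPM + 1) scale. The chicken name gga-miR-2954, which gives no arm, had 19, 1377 and 12.7 RPM in CR replicates 1 to 3 and 555, 27.8 and 21.1 RPM in TB replicates 1 to 3. CR replicate 2 and TB replicate 1 were thus high and the other 4 libraries lay between 12.7 and 27.8 RPM. The highest library had 108 times the value of the lowest, and the counts behind them were 2067 and 127 reads, with 95% Wilson intervals of 1319 to 1438 RPM and 10.7 to 15.1 RPM. The mean was 469.6 ± 786 RPM in CR and 201.3 ± 306 RPM in TB (SD, n = 3 each), with overlap between the groups (p = 1.0 in the two-sided exact permutation test).

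The second name of this hairpin, tgu-miR-2954-5p, moved with the first. It had 1.14, 53.3 and 0.80 RPM in CR replicates 1 to 3 and 24.5, 1.07 and 1.55 RPM in TB replicates 1 to 3, from 265 reads in all. It was again high in CR replicate 2 and TB replicate 1 alone. Its share of the reads of both names was 3.73% in CR replicate 2 (95% Wilson interval 3.0% to 4.61%) and 4.23% in TB replicate 1 (3.60% to 4.97%), while it ran from 3.70% to 6.86% elsewhere, with intervals that all overlapped these. The ratio of both names ran from 13.6 to 26.0.

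The spread of miR-2954 was wide beside that of other names. Between the highest and the lowest library, gga-miR-2954 differed by 6.65 on the log2(RPM + 1) scale, and 15 of the 662 names (2.27%) differed by more. The median difference was 2.57 over the 19 members and 2.80 over all 662 names, where names with equal counts were each counted. The 5 names most like gga-miR-2954 over the 6 libraries, by Pearson correlation of log2(RPM + 1), were dre-miR-375, bfl-miR-375, ipu-miR-375, pma-miR-375b-3p and hsa-miR-214-3p, at 0.997 to 0.999. They share the 6 libraries and their depth, and all were high in CR replicate 2 and TB replicate 1 alone. The correlations thus rest mostly on these libraries. Of the 5 names, 4 are names of the same miRNA, miR-375. The fifth, hsa-miR-214-3p, had 22.2, 1518 and 13.6 RPM in CR replicates 1 to 3 and 671, 22.8 and 16.2 RPM in TB. dre-miR-375 had 272, 6993 and 218 RPM in CR replicates 1 to 3 and 3314, 325 and 311 RPM in TB replicates 1 to 3.

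Some marker sums of cell types were lower and some higher in the libraries that were high in miR-2954. The epithelial marker sum was 36505 RPM in CR replicate 2 and 47880 RPM in TB replicate 1, against 126618 to 186540 RPM elsewhere. A large part of this difference came from hsa-miR-215-5p, at 12535 RPM in CR replicate 2 and 11200 RPM in TB replicate 1. This name was at 91467 to 143915 RPM elsewhere. The sum thus does not show that each epithelial marker was lower. The smooth muscle marker sum was 92244 RPM in CR replicate 2 and 119998 RPM in TB replicate 1, against 155691 to 201260 RPM elsewhere. The sum of the acinar pancreas markers miR-216 and miR-217 was 25.3 RPM in CR replicate 2 and 52.2 RPM in TB replicate 1, against 1.11 to 4.74 RPM elsewhere, and the hepatocyte miRNA miR-122 was at 328 RPM in CR replicate 2 and 7.36 RPM in TB replicate 1, against 1.55 to 5.10 RPM. The 5 blood cell markers found of 6 listed summed to 184 RPM in CR replicate 2 and 80.8 RPM in TB replicate 1, against 276 to 381 RPM elsewhere. Endothelial miR-126 was at 639 and 469 RPM in these libraries and at 736 to 1467 RPM elsewhere, while the neuronal markers miR-9 and miR-124 summed to 87.9 and 45.2 RPM, against 50.9 to 112 RPM. The part of tissue composition, of the sex of the ducks and of the depth of CR replicate 2 in the level of miR-2954 was not tested. In bulk tissue, fewer cells of a type and less of an RNA per cell cannot be told apart.

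**Figure D3:**
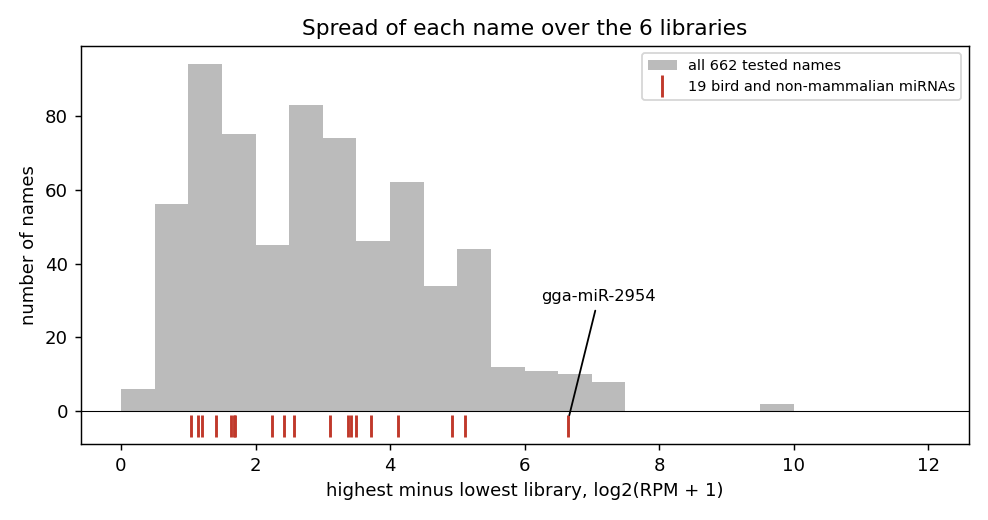
Number of the 662 tested names (grey bars) by the difference between their highest and lowest library in log2(RPM + 1), with a red tick for each of the 19 tested members. gga-miR-2954, at 6.65, has the tick farthest to the right, and 15 names differed by more.

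miR-1559-5p and miR-1662 were the other members with a mean above 100 RPM. gga-miR-1559-5p had 205, 127 and 188 RPM in CR replicates 1 to 3 and 88.8, 177 and 237 RPM in TB replicates 1 to 3. Unlike most members, it was lowest in TB replicate 1 and CR replicate 2, and its highest library had 2.67 times the value of the lowest. The means were 173 ± 40.8 RPM in CR and 167 ± 74.5 RPM in TB (SD, n = 3 each; two-sided exact permutation test, p = 0.9). Nearly all reads of this hairpin came from the 5p arm, with 4 reads of gga-miR-1559-3p against 8696 reads of gga-miR-1559-5p over all libraries.

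gga-miR-1662 had 107, 179 and 45.7 RPM in CR replicates 1 to 3 and 220.4, 80.6 and 69.0 RPM in TB replicates 1 to 3, with the same read counts as the alligator name ami-miR-1662-5p. It was high in TB replicate 1 and CR replicate 2. The means of 110.3 ± 66.5 RPM in CR and 123 ± 84.2 RPM in TB (SD, n = 3 each) differed by less than the spread within a group (two-sided exact permutation test, p = 0.8).

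In the middle range, gga-miR-3535 had 17.2, 97.9 and 8.20 RPM in CR replicates 1 to 3 and 26.3, 11.2 and 15.4 RPM in TB replicates 1 to 3. gga-miR-1434 had 14.3, 45.3 and 13.3 RPM in CR and 36.4, 33.0 and 18.3 RPM in TB. gga-miR-1451-5p had 4.39, 31.3 and 3.90 RPM in CR and 54.3, 7.6 and 4.88 RPM in TB. In all 3 of them CR replicate 2 and TB replicate 1 were the highest libraries, so that each group held 1 high library and the groups overlapped. The mouse name mmu-miR-3535 was lower than gga-miR-3535 in each library, by 1.30 to 5.15 times. The 3p arm of miR-1451 took 11 of 61, 0 of 47 and 1 of 40 reads in CR replicates 1 to 3. In TB replicates 1 to 3 it took 3 of 313, 5 of 76 and 3 of 47 reads.

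miR-1306, which lies within the gene of the miRNA-processing factor DGCR8 in human, also has a chicken name. gga-miR-1306-3p had 0.614, 54.6 and 1.0 RPM in CR replicates 1 to 3 and 17.3, 0.964 and 1.11 RPM in TB replicates 1 to 3. Outside CR replicate 2 and TB replicate 1 these values rest on 7 to 10 reads. The 5p arm had too few reads to be tested, at 18 reads in CR replicate 2 and 36 in TB replicate 1, and had the same read counts as the human name hsa-miR-1306-5p. Among the 19 members, the log2 range of gga-miR-1306-3p, 5.11, was next to that of gga-miR-2954.

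The families named in the rule apart from miR-2954 had few reads under the names listed. How well these names match the duck sequences was not tested. Reads differed between names, as tgu-miR-460b-5p had 1 read and gga-miR-460b-5p 77. miR-2188 was found as dre-miR-2188-5p (zebrafish), at 1.14, 7.33 and 0.40 RPM in CR replicates 1 to 3 and 6.13, 1.82 and 1.89 RPM in TB replicates 1 to 3, from 97 reads. Its 3p arm, tgu-miR-2188-3p, had 2 reads. miR-460 had 15 names, of which gga-miR-460b-5p was the most abundant, at 2.72, 1.33 and 0.40 RPM in CR replicates 1 to 3 and 3.5, 1.18 and 0.998 RPM in TB replicates 1 to 3, from 77 reads. gga-miR-460a-5p, with the same read counts as the platypus name oan-miR-460-5p, followed with 0.614, 2.67 and 0.30 RPM in CR and 1.75, 1.18 and 0.333 RPM in TB. The groups overlapped for all 3 of these 5p arms, and the 3p arms of both chicken hairpins were below them, at 7 reads for gga-miR-460b-3p and 5 reads for gga-miR-460a-3p.

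The remaining members past the filter were all under 10 RPM on average. gga-miR-1416-5p had 3.07, 15.3 and 0.900 RPM in CR replicates 1 to 3 and 7.71, 1.82 and 1.22 RPM in TB replicates 1 to 3. gga-miR-2184a-5p had 1.32, 4.66 and 0.40 RPM in CR and 6.48, 1.5 and 0.777 RPM in TB. Both were again highest in CR replicate 2 and TB replicate 1. tgu-miR-2984-5p had 0.0878, 13.3 and 0.60 RPM in CR and 11.7, 3.32 and 0.555 RPM in TB, and the 3p arm, gga-miR-2984-3p, had 0, 9.33 and 0.30 RPM in CR and 5.96, 1.28 and 0.222 RPM in TB. The 3p share of miR-2984 reads was between 27.9% and 41.2% in the 5 libraries where both arms were seen, with Wilson intervals that overlapped. In CR replicate 1 the count of 0 of gga-miR-2984-3p allows a level of up to 0.263 RPM by a floor of 3 reads and up to 0.337 RPM by the 95% Wilson interval.

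In 3 further low members, CR replicate 2 and TB replicate 1 were not the highest libraries together. gga-miR-2131-3p had 4.12, 2.67 and 2.0 RPM in CR replicates 1 to 3 and 1.23, 3.85 and 3.88 RPM in TB replicates 1 to 3. gga-miR-2131-5p had 1.40, 1.33 and 0.50 RPM in CR and 1.05, 2.03 and 2.33 RPM in TB, and tgu-miR-1677-3p had 2.02, 3.33 and 1.10 RPM in CR and 1.75, 1.93 and 1.89 RPM in TB. The highest library was 3.36, 4.66 and 3.03 times the lowest in these members, which rest on as few as 2 to 7 reads in some libraries. The chicken name gga-miR-1677-3p was listed at 0 in every library.

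Below the filter, 7 further distinct members had at least 10 reads in all. Besides gga-miR-1306-5p, gga-miR-460a-5p and tgu-miR-1451-3p, these were gga-miR-7475-5p, with 25 reads in CR replicate 2 and 12 in TB replicate 1 and 0 elsewhere, and tgu-miR-2970-3p, with 22 reads in CR replicate 2, 8 in TB replicate 1 and 1 in CR replicate 3. Both were thus seen almost solely in the libraries that stood apart. Of the duck names, apl-miR-11589-5p had 4, 7 and 2 reads in CR replicates 1 to 3 and 11, 0 and 0 reads in TB replicates 1 to 3, and apl-miR-11591-5p had 16 reads in CR replicate 2, or 10.7 RPM (95% Wilson interval 6.56 to 17.3 RPM), and 0 in all others. At 0 reads, the upper end of the 95% Wilson interval was 0.411 RPM in TB replicate 2 and 0.426 RPM in TB replicate 3. The 36 distinct sets left had at most 8 reads, with a median of 3, and 6 of them had a single read. One of them, gga-miR-1648-5p, had counts equal to those of mmu-miR-137-5p, a different miRNA.

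The comparison of CR with TB was made with limma on log2(RPM + 1) over all 662 tested names. An adjusted p under 0.05 (Benjamini-Hochberg) was reached by 0 of the 19 members and by 0.00% of all names. The number with an unadjusted p under 0.05 was also 0 among the members, and again 0.00% of all names reached it. With edgeR and with DESeq2 on the recovered reads, 5 names each had an unadjusted p under 0.05, 0 of them a member, and 0 an adjusted p under 0.05. DESeq2 gave no p for gga-miR-2954, which is thus not among the members it tested. The log2 fold changes of the 19 members ran from -0.59 (tgu-miR-2984-5p, standard error 1.24) to 0.53 (gga-miR-3535, standard error 1.03), with 9 above 0 and 10 below. Their median was -0.16, beside 0.05 over all names, and TMM scaling moved these medians to -0.27 and -0.11. Without CR replicate 2 they were -0.84 and -0.44, and without TB replicate 1 they were 0.32 and 0.39. gga-miR-2954 had a log2 fold change of 0.03 with a standard error of 2.15, the widest of the 19, and gga-miR-2131-5p had -0.43 with the narrowest, 0.43 (adjusted p = 0.999 from limma for both). The 19 exact permutation tests on RPM gave p between 0.3 and 1.0, unadjusted. In 0 of the 19 members did every CR library lie above every TB library, which 0.604% of all names did, and in 0 did every CR library lie below, which 1.66% did.

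**Figure D4:**
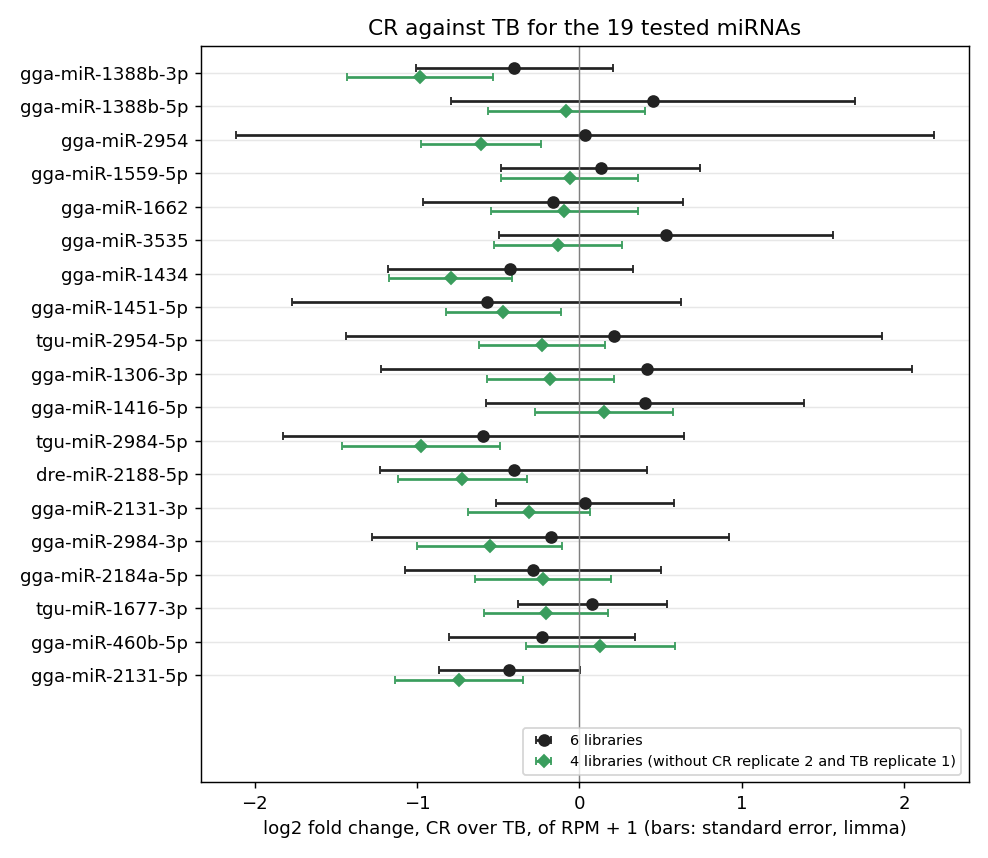
Log2 fold change of CR over TB (RPM + 1) with its standard error from limma for the 19 tested miRNAs, with all 6 libraries (black) and with the 4 libraries left without CR replicate 2 and TB replicate 1 (green). Bars show the standard error and are not confidence intervals. Every black bar crosses 0, that of gga-miR-2131-5p only narrowly. Some green bars do not cross 0, such as that of gga-miR-1434 (-0.79, standard error 0.38), although no adjusted p was under 0.05 in limma. The standard error of gga-miR-2954 was 2.15 with 6 libraries and 0.37 with 4.

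Without CR replicate 2 and TB replicate 1, CR replicates 1 and 3 were compared with TB replicates 2 and 3. gga-miR-2954 then had a log2 fold change of -0.61 with a standard error of 0.37 (limma, adjusted p = 0.978). It had 19 and 12.7 RPM in CR against 27.8 and 21.1 RPM in TB. The only member with an unadjusted p under 0.05 in limma was gga-miR-1388b-3p, which fell short after adjustment (adjusted p = 0.976) and had a log2 fold change of -0.98, standard error 0.45. An unadjusted p under 0.05 was reached by 3.63% of all names in these 4 libraries. In these 4 libraries 6 of the 19 members (31.6%) were lower in both CR libraries than in both TB libraries, namely gga-miR-1388b-3p, gga-miR-2954, gga-miR-1434, gga-miR-1451-5p, dre-miR-2188-5p and gga-miR-2131-5p, where 25.4% of all names were. None of the 19 was higher in both CR libraries, where 6.19% of all names were. In these shares, members with equal counts were counted once, but all names were each counted. The median log2 fold change was -0.23 over the members, with 2 above 0 and 17 below, and -0.11 over all names. How many of all names lay below 0 was not counted.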

How the data were processed

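Small RNA libraries of 3 CR and 3 TB duodenum samples were made with the TruSeq small RNA kit and read on an Illumina HiSeq. For every sample the authors deposited a table of 1568 miRNA names with a value in a column headed tpm. Each column sums to 1000000 and 100% of the values were whole multiples of a step worth 1 read (within 0.05 reads), so the deposited values are RPM, reads of a name scaled to that total, although the methods of the study name FPKM. Aligner, annotation and read filters are not given in the sources used here.

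Reads were recovered by dividing by that step. Names for which 3 or more of the 6 libraries had 10 or more reads were compared, CR over TB, with limma 3.58.1 (trend) on log2(RPM + 1), a scale that understates the change of low names, with Benjamini-Hochberg adjustment over all 662 names. edgeR 4.0.16 and DESeq2 1.42.0 on the recovered reads, other pseudocounts (0.5 and 5), other filters, TMM scaling, a block for the replicate number, names with the same values counted once and each library left out were alternatives. Members with equal counts were counted once, whereas shares over all 662 names count each name, and 447 were left when names with the same values were counted once. The RPM values of each member were compared by the two-sided exact permutation test. The fits were also run on simulated reads in which no library stood apart. That run therefore does not show how the fits deal with CR replicate 2 and TB replicate 1. Software was scipy 1.17.1, numpy 2.4.6, matplotlib 3.10.9 and pandas 2.3.3 in Python 3.11.15, and R 4.3.3.

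The members, marker lists and alternatives were chosen with earlier results of these data known. The miRNAs named include all members past the filter, those below it with at least 10 reads and the 5 names most like gga-miR-2954. Names of other species with the same read counts or the same number and arm are named in part only. The same holds for the 5 names with the highest means, used for scale. Members with fewer reads named as examples were chosen after their values were seen.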

Additional observations from a re-analysis of the deposited data

How the results depend on the processing

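With 3 libraries a group, of which 1 in each stood apart, small differences were not detectable and large ones could be missed. The limma standard error of a log2 fold change was up to 2.15 among the members (gga-miR-2954). Over all 662 names the smallest unadjusted p in limma was 0.05001. Counts of 0 past a threshold thus do not show that levels were equal. The shallowest library, CR replicate 2, allows up to 2.0 RPM at a count of 0. No name had an adjusted p under 0.05 in limma under any alternative run, nor with edgeR or DESeq2, which gave no p for gga-miR-2954. Unadjusted p values under 0.05 were found for 0 names in limma, 5 with edgeR and TMM, 5 with DESeq2, 1 with a pseudocount of 5, 4 with no filter and 24 without both TB replicate 1 and CR replicate 2, and the number of members was 1 in that last setting and 0 otherwise. Both numbers stayed at 0 whichever single replicate was left out. With the replicate number as a block, 0 names had an unadjusted p under 0.05. The deviations of same-numbered libraries from their group means had correlations of -0.80, -0.91 and 0.91. In these deviations CR replicate 2 was most like TB replicate 1. CR replicate 2 and TB replicate 1 weigh on their group means, so whether the numbers pair libraries cannot be told from this.

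No member reached an adjusted p under 0.05, but signs were not stable, and 238 values kept their direction while 52 did not; the cause was not tested. Without both libraries, the log2 fold change was -0.081 for gga-miR-1388b-5p, -0.61 for gga-miR-2954, -0.061 for gga-miR-1559-5p, -0.13 for gga-miR-3535, -0.23 for tgu-miR-2954-5p, -0.18 for gga-miR-1306-3p, -0.31 for gga-miR-2131-3p, -0.21 for tgu-miR-1677-3p and 0.13 for gga-miR-460b-5p. With TMM-scaled RPM it was -0.17 for gga-miR-2954, -0.055 for gga-miR-1559-5p, -0.040 for tgu-miR-2954-5p, -0.12 for gga-miR-2131-3p and -0.091 for tgu-miR-1677-3p. The last 2 were also below 0 with edgeR (-0.23 and -0.15) and DESeq2 (-0.21 and -0.083), and a pseudocount of 5 gave -0.00010 for gga-miR-2131-3p and 0.026 for gga-miR-2984-3p.

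With one replicate left out, the log2 fold change ran from -0.75 to 1.31 for gga-miR-1388b-5p, from -2.09 to 1.52 for gga-miR-2954, from -0.27 to 0.43 for gga-miR-1559-5p, from -0.61 to 0.36 for gga-miR-1662, from -0.45 to 1.27 for gga-miR-3535, from -1.46 to 0.42 for gga-miR-1451-5p, from -1.39 to 1.37 for tgu-miR-2954-5p, from -1.24 to 1.47 for gga-miR-1306-3p, from -0.45 to 1.10 for gga-miR-1416-5p, from -1.74 to 0.17 for tgu-miR-2984-5p, from -1.16 to 0.13 for dre-miR-2188-5p, from -0.34 to 0.22 for gga-miR-2131-3p, from -1.24 to 0.51 for gga-miR-2984-3p, from -0.84 to 0.32 for gga-miR-2184a-5p, from -0.18 to 0.34 for tgu-miR-1677-3p and from -0.58 to 0.14 for gga-miR-460b-5p. It stayed below 0 for gga-miR-1388b-3p, gga-miR-1434 and gga-miR-2131-5p. The log2 ratio of the summed level ran from -0.91 (without CR replicate 2) to 0.69 (without CR replicate 3), and it was 0.16 without miR-2954.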
